A study of Mus musculus with 4 samples.

Results

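The Bcl2 family genes examined here are 10 regulators of apoptosis, taken by gene symbol and not by any measured value. They are the effector genes Bax and Bak1, the BH3-only genes Bad, Bid, Bcl2l11, Bbc3 and Pmaip1, and the pro-survival genes Bcl2, Bcl2l1 and Mcl1. The deposited Ribo-seq table lists 11598 genes and holds 9 of the 10. Bcl2 was not analysed here.

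Ribo-seq counts the pieces of mRNA that a translating ribosome shields from nuclease, called ribosome-protected fragments (RPFs). The table covers 4 libraries of leptotene and zygotene spermatocytes, the cells at the start of meiosis, sorted by FACS from mouse testes at 12 dpp (days postpartum). Of these, 2 libraries came from animals titled control, whose genotype label is wild type, and 2 from Eef1g-cKO animals. In Eef1g-cKO, Stra8-GFPCre, a Cre recombinase expressed in male germ cells from the spermatogonial stage on, removes exons of Eef1g, which encodes a subunit of the translation elongation factor eEF1. The knockout is therefore restricted to germ cells, and any somatic cell carried through the sort would keep Eef1g. Animals were of the C57BL/6J background. The number of animals behind each library and any allele carried by the controls are not given in the sources used here.

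BCL2 proteins decide whether the outer mitochondrial membrane stays intact. BAX and BAK, when activated, assemble into pores that release cytochrome c and set off the caspase cascade. Pro-survival proteins such as BCL-XL and MCL1 hold them back, and BH3-only proteins, which sense damage or stress, bind the pro-survival proteins or activate the effectors directly. In the mouse testis this balance sets germ cell number, and males lacking Bax are infertile.

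The feature that these proteins share is the BH3 motif, a short helix through which they bind one another. Its core is a leucine, then 3 of any residue, then glycine, alanine or serine, then aspartate. A search of the coding sequences (the longest per gene in GENCODE release M21, build GRCm38) found this core 1 time in each of 8 members in the table and 2 times in Pmaip1, whose sequence is not printed. The core is short and not specific, since 39.2% of 9770 tested genes with a coding sequence hold it. The 9 codons from the leucine on are given below for those 8 members, to show how alike the shared element is in genes whose RPF abundance moved in different directions. Each stretch lies within 1 coding exon and is identical to the genome at the position given. Capitals mark the leucine codon and the pair of codons that ends in aspartate.
Bax, chr7:45465997-45466023, minus strand: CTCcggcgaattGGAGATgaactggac
Bak1, chr17:27022531-27022557, minus strand: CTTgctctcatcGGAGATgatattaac
Bid, chr6:120897289-120897315, minus strand: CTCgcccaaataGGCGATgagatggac
Bad, chr19:6950792-6950818, plus strand: CTCcgaaggatgAGCGATgagtttgag
Bcl2l11, chr2:128147150-128147176, plus strand: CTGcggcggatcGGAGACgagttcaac
Bbc3, chr7:16313773-16313799, plus strand: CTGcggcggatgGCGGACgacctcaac
Mcl1, chr3:95659436-95659462, plus strand: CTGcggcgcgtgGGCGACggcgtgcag
Bcl2l1, chr2:152829697-152829723, minus strand: CTGagagaggcaGGCGATgagtttgaa
The codon before aspartate encodes glycine in 6 of the 8 genes, serine in Bad and alanine in Bbc3.

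The values compared are FPKM, reads per kilobase of gene per 1000000 reads counted on genes. Depth was 2479504 and 1384282 reads in control replicates 1 and 2, and 223906 and 407979 in Eef1g-cKO replicates 1 and 2. The median listed gene had 60 and 34 reads in control and only 5 and 8 in Eef1g-cKO, so counting error is largest there. The deleted gene, Eef1g, was left with 0 and 4 reads in Eef1g-cKO, against 107 and 58 in control. Even this decrease passed limma by unadjusted p only (limma adjusted p = 0.0731), while edgeR, a test on read counts, called it (adjusted p = 0.00780). Markers of spermatocytes were present in every library, as 11 of 11 were listed, with a summed level of 2184 and 1792 FPKM in control and 4636 and 4246 in Eef1g-cKO. Of these markers, 6 were called increased by limma's adjusted p and 1, Stra8, decreased, and Sycp3 alone accounted for 811 and 716 FPKM of the control sums and 2217 and 1778 of the Eef1g-cKO sums. Markers of spermatogonia, 8 of 8 listed, had a summed level of 1470 and 1737 FPKM in control and 247 and 221 in Eef1g-cKO. Uchl1 alone accounted for 1011 and 1138 FPKM of these control sums and 140 and 120 of the Eef1g-cKO sums. Markers of Sertoli cells, 7 of 8 listed, summed to 559 and 136 FPKM in control against 134 and 85.5 in Eef1g-cKO. Most of this was Clu, at 458 and 96.3 FPKM in control and 91.4 and 65.1 in Eef1g-cKO, while Gata4 was at 0 in both Eef1g-cKO libraries. None of the 5 leukocyte markers was listed. The part of these shifts in the results below was not tested, and in sorted bulk samples fewer cells of a type and less RNA per cell cannot be told apart.

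Between the genotypes, Bak1 rose and Bax and Bid fell, while Mcl1, Pmaip1, Bcl2l1, Bad and Bcl2l11 did not pass the test. Limma on log2(FPKM + 1) tested the 8 members that averaged 1 FPKM or more over all libraries, which Bbc3 did not. Bak1 passed this filter only through Eef1g-cKO, with a mean of 19.0 FPKM there and 0.562 in control. With no filter it was still called (limma adjusted p = 0.0429). A gene was called at a Benjamini-Hochberg adjusted p under 0.05, over all 10475 genes tested, and a change of more than 1 on the log2 scale. By this rule 1 member was increased, against 2.87% of all tested genes, and 2 were decreased, against 4.97%. By unadjusted p these same 3 members were called, with a background of 7.32% increased and 16.3% decreased. They were also called by edgeR's quasi-likelihood test on the recovered reads, with 8.75% of its 8056 genes increased and 11.2% decreased. DESeq2 on the same reads called only Bak1, and not Bax (DESeq2 adjusted p = 0.0544) or Bid (DESeq2 adjusted p = 0.0823). Over the 11598 listed genes, DESeq2 called 502 increased and 451 decreased. With libraries centred on their medians, limma's adjusted p gave 521 increased and 383 decreased genes, in place of 301 and 521. The median log2 change of the 8 members was −0.08, against −0.23 for all genes tested.

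**Figure D1:**
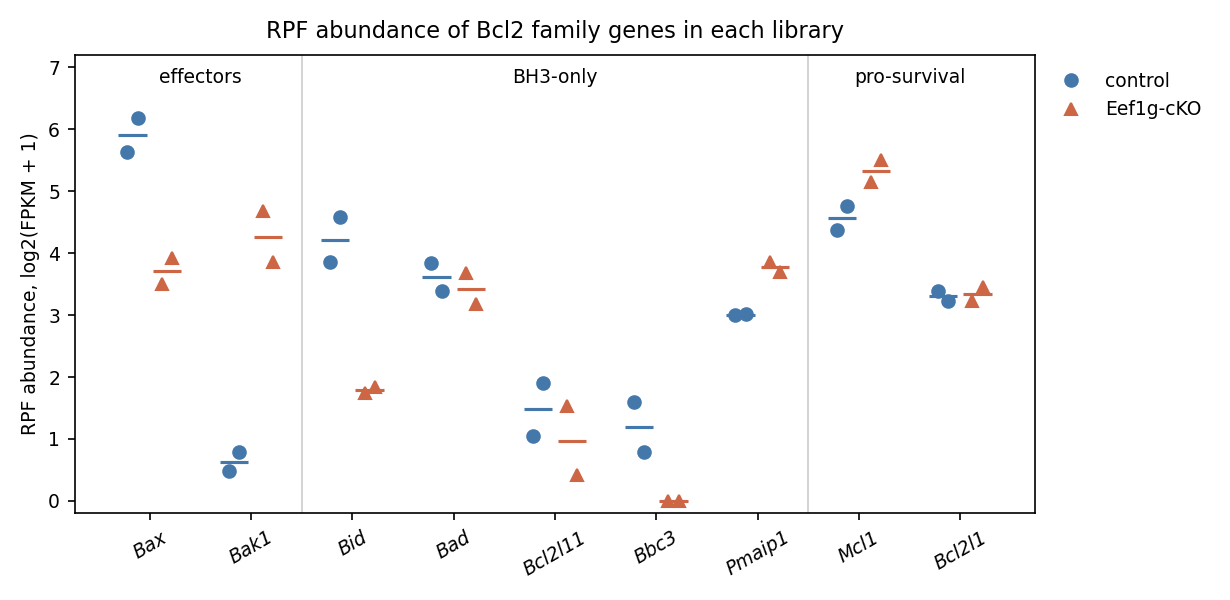
RPF abundance of the 9 listed Bcl2 family genes as log2(FPKM + 1), with 1 point per library (circles, control; triangles, Eef1g-cKO) and a bar at each genotype's mean. The genotypes are farthest apart in Bax and Bid, lower in Eef1g-cKO, and in Bak1, higher in Eef1g-cKO.

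Bax, one of the pore-forming effectors (chromosome 7, 45461695 to 45466903 in GRCm38.p6), had the highest mean FPKM of the members in control. Control libraries held 105 and 86 Bax reads and Eef1g-cKO libraries 2 and 5, or 48.7 and 71.5 FPKM against 10.3 and 14.1. Both Eef1g-cKO libraries lay below both control libraries. Bax RPF abundance averaged 60.1 ± 16.1 FPKM in control and 12.2 ± 2.70 in Eef1g-cKO (SD, n = 2 each), which limma put at −2.20 on the log2 scale (standard error 0.31, adjusted p = 0.0297). Its place among all listed genes went from above 86.8% and 89.7% of them in control to above 57.8% and 64.6% in Eef1g-cKO. No other gene of the RefSeq annotation overlaps Bax.

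Bak1 encodes BAK, the other effector (chromosome 17, 27019812 to 27028627), and moved the opposite way. Only 2 Bak1 reads were found in each control library and 11 in each Eef1g-cKO library, although the control libraries were far deeper. In FPKM it was at 0.403 and 0.722 in control and at 24.5 and 13.5 in Eef1g-cKO, and the genotypes did not overlap. Even 3 reads per control library would amount to only 0.604 and 1.08 FPKM. With the libraries of a genotype pooled, Bak1 took 1.04 reads per 1000000 in control and 34.8 in Eef1g-cKO, a ratio of 33.6 with an exact 95% counting interval of 11.4 to 134. The increase was called by limma (adjusted p = 0.0296) and by edgeR (adjusted p = 2.53e-04). No fitted fold change is given, since both control libraries were at 3 reads or fewer and such a value depends on the pseudocount. Ggnbp1, which overlaps Bak1 in the annotation, had 2 and 12 reads in control and 0 in both Eef1g-cKO libraries. Whether the counting used strand is not given in the sources used here, so reads from the overlap may not be assigned with certainty.

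The effector pair therefore changed its make-up. Of the summed effector FPKM, Bax held 99.2% and 99.0% in control replicates 1 and 2, and 29.5% and 51.2% in Eef1g-cKO replicates 1 and 2. Because Bak1 rose while Bax fell, summed effector RPF abundance was 49.1 and 72.2 FPKM in control and 34.8 and 27.6 in Eef1g-cKO. Both Eef1g-cKO sums of FPKM lay below both control sums, by a smaller step than Bax alone. This separation depends on the division by gene length, since effector reads scaled to library depth alone overlapped between the genotypes.

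**Figure D2:**
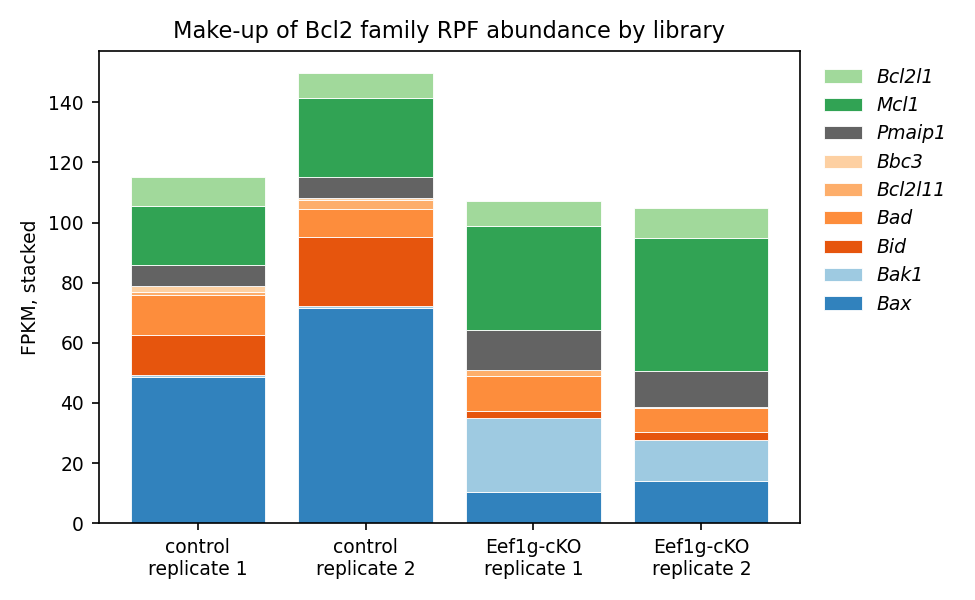
Stacked FPKM of the 9 listed Bcl2 family genes in each of the 4 libraries. The Bax share of each bar is smaller and the Bak1 and Mcl1 shares larger in Eef1g-cKO, while the whole bar is 115 and 150 FPKM in control and 107 and 105 in Eef1g-cKO.

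Among the BH3-only genes, Bid encodes a protein that caspase 8 cleaves to link death receptors to mitochondria. From 63 and 60 reads, control showed 13.4 and 22.9 FPKM, and from 1 and 2 reads Eef1g-cKO showed 2.36 and 2.59. The Eef1g-cKO libraries were both below both control libraries, and 3 reads in each would still amount to only 7.09 and 3.89 FPKM. Pooled by genotype, Bid took 31.8 reads per 1000000 in control and 4.75 in Eef1g-cKO, so control was 6.71-fold higher with an exact 95% counting interval of 2.24 to 33.0. The decrease was called by limma (adjusted p = 0.0379) and by edgeR (adjusted p = 0.0113), and as the 3 remaining reads set its size, only the interval bounds it.

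Pmaip1 encodes NOXA, which binds MCL1 preferentially and is induced by p53 and by the integrated stress response. It had 6.99 and 7.08 FPKM in control and 13.5 and 12.0 in Eef1g-cKO, from 46 and 26 reads and 8 and 13 reads. The Eef1g-cKO pair was the higher of the genotypes without overlap. The log2 difference of 0.77 had a 95% interval of −0.07 to 1.61 and did not pass the test (limma adjusted p = 0.188).

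Bad, whose product is held inactive by phosphorylation downstream of growth factors, was at 13.3 and 9.50 FPKM in control and at 11.7 and 8.06 with Eef1g deleted. The libraries of the genotypes overlapped. Its log2 difference was −0.19 with a 95% interval of −1.12 to 0.75 (limma adjusted p = 0.764), so a change of more than 1 in the downward direction was not excluded at this depth. Gpr137 overlaps Bad in the annotation and had 11 and 14 reads in control against 4 and 3 in Eef1g-cKO.

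Bcl2l11, which encodes BIM, and Bbc3, which encodes the p53 target PUMA, were at the limit of detection in Eef1g-cKO. Bcl2l11 had 19 and 27 control reads against 3 and 1 Eef1g-cKO reads, or 1.07 and 2.73 FPKM against 1.88 and 0.343. Its genotypes overlapped, and the pooled ratio of control to Eef1g-cKO was 1.88 with a counting interval of 0.687 to 7.19 (limma adjusted p = 0.625). Bbc3 had 10 and 2 control reads and 0 in either Eef1g-cKO library. The control level of 3.11 reads per 1000000 lies below the 4.75 that a count of 0 allows over both Eef1g-cKO libraries together, taking 3 reads as the limit, so no difference was detectable and no fold is given.

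**Figure D3:**
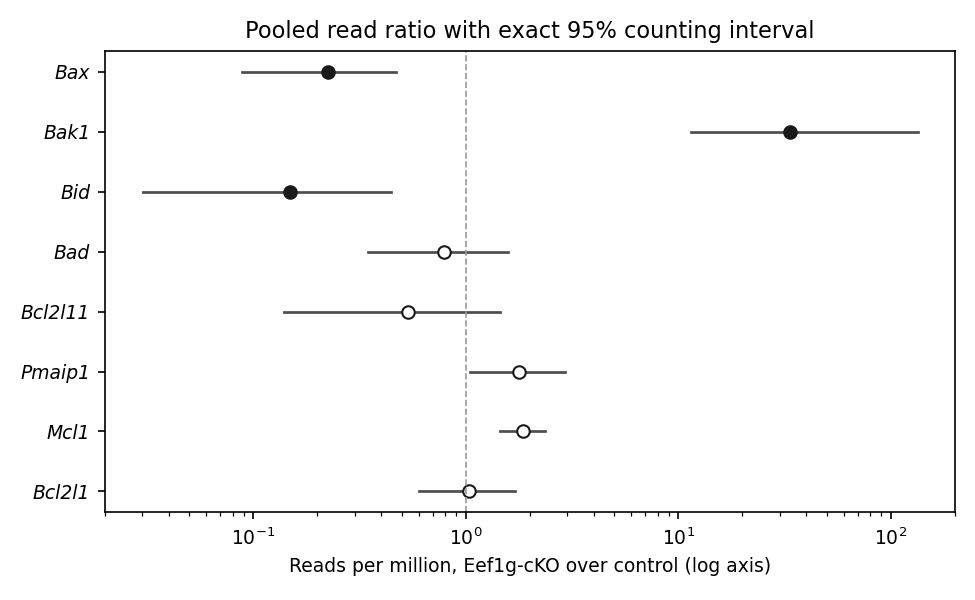
Ratio of reads per 1000000, Eef1g-cKO over control with each genotype's libraries pooled, on a log axis, for the 8 listed members with reads in both genotypes. Bars are exact 95% counting intervals, which leave out the spread between libraries, and filled points passed the limma test. Bax and Bid lie below 1, Bak1 far above it, and the intervals of Bad, Bcl2l11 and Bcl2l1 include 1.

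The pro-survival genes did not pass the test. Mcl1 encodes a short-lived protein that guards BAK in particular. Its 170 and 126 control reads and 27 and 63 Eef1g-cKO reads amount to 19.7 and 26.1 FPKM against 34.6 and 44.3, and was the most abundant member in Eef1g-cKO. The genotypes did not overlap, with Eef1g-cKO the higher. The means were 22.9 ± 4.55 and 39.4 ± 6.86 FPKM (SD, n = 2 each), a log2 difference of 0.76 with a 95% interval of 0.07 to 1.45 (limma adjusted p = 0.135). In edgeR the difference of 0.90 had an adjusted p of 0.0245 but stayed under the fold threshold.

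Bcl2l1, which encodes BCL-XL, was at 9.47 and 8.37 FPKM in control, against 8.39 and 9.97 in Eef1g-cKO. The genotypes overlapped and the log2 difference was 0.04 (95% interval −0.83 to 0.90, limma adjusted p = 0.954). The interval excludes a change of 1 or more in either direction under this fit. Cox4i2 overlaps Bcl2l1, and Acoxl overlaps Bcl2l11, in the annotation, and neither was analysed here. Mcl1 held 67.5% and 75.7% of the summed FPKM of this pair in control, and 80.5% and 81.6% in Eef1g-cKO.

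By mean FPKM, levels stood in a different order in each genotype. FPKM divides by a listed length of 869 bases for Bax and 3487 for Mcl1, while their coding sequences hold 192 and 331 codons. The order between genes therefore depends on bases outside the coding sequence. Mcl1 had more control reads than Bax, 170 and 126 against 105 and 86. In control, Bax came first, above Mcl1, Bid, Bad, Bcl2l1, Pmaip1, Bcl2l11, Bbc3 and Bak1 in falling order of mean FPKM. The ranges of the replicates overlapped between Mcl1 and Bid and between Bcl2l11 and Bbc3, and between no other neighbours. Bbc3 and Bak1 were still not resolved, as each had 2 reads in control replicate 2. Their 0.731 and 0.722 FPKM there differ only through listed lengths of 1976 and 2002 bases. In Eef1g-cKO, Mcl1 came first, followed by Bak1, Pmaip1, Bax, Bad, Bcl2l1, Bid and Bcl2l11, with Bbc3 at 0. There the neighbours from Pmaip1 to Bcl2l1 could not be ordered beyond the spread of their replicates. Bid, Bcl2l11 and Bbc3 had at most 3 reads in each Eef1g-cKO library, so they could not be ordered among themselves either. For Bbc3, 3 reads would amount to 6.78 and 3.72 FPKM, above the 2.36 and 2.59 of Bid. Of the 8 tested members, 3 (Bak1, Mcl1 and Pmaip1) had both Eef1g-cKO libraries above both control libraries, against 24.6% of all genes tested. In 2, Bax and Bid, both lay below, against 37.7%.

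Set against each other, effector FPKM summed to 1.69 and 2.10 times the pro-survival FPKM in control. It was 0.810 and 0.508 times in Eef1g-cKO, and the genotypes did not overlap. These ratios are of RPF abundance without Bcl2 and are given as a description. Which class came out higher depends on the division by gene length. Without that division, effectors were below the pro-survival genes in every library. Effectors took 43.2 and 63.6 reads per 1000000 in the control libraries, against 98.8 and 118 for pro-survival genes. The Eef1g-cKO libraries gave 58.1 and 39.2 against 147 and 186. All 9 listed members together took 218 and 279 reads per 1000000 in control and 277 in each Eef1g-cKO library, so the family as a whole held a like share of the reads while its members differed.

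The study relates ribosome occupancy to codon usage, so the codon adaptation index was computed for each member. This index, between 0 and 1, is higher where a gene uses the codons favoured by abundant genes, here the 488 genes (top 5%) with the highest control FPKM. Its median was 0.777 over 9770 genes. The 3 called members all lay above it, Bax at 0.815, Bid at 0.812 and Bak1 at 0.801, although Bak1 rose and the others fell. Mcl1 at 0.735 and Pmaip1 at 0.691 were low, with 14.5% and 1.00% of genes below them. Bcl2l1, Bad and Bcl2l11 stood at 0.799, 0.794 and 0.792, and Bbc3 at 0.774. Bax and Bid, the called members that fell, thus had a higher index than Bak1, Mcl1 and Pmaip1. The latter were higher in Eef1g-cKO without overlap of the genotypes. Bbc3, not tested but lower without overlap on 0 Eef1g-cKO reads, breaks this order, as its 0.774 lay below Bak1 at 0.801. The overlapping members Bcl2l1, Bad and Bcl2l11 lay between Bak1 and Mcl1. These are descriptions, and with so few genes no test was made.

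Beyond these members, 71 other apoptosis genes were followed by role, of which 55 were listed and 53 tested. Limma called 1 increased and 2 decreased by adjusted p, and 2 increased and 10 decreased by unadjusted p, against the backgrounds given above. Their median log2 change was −0.20. Of the 10 decreases, 7 were in genes with at most 3 reads in each Eef1g-cKO library. Calls by adjusted p fell in other Bcl2 family genes (1 of 8 tested), mitochondrial release and apoptosome genes (1 of 7) and stress inputs to BH3-only genes (1 of 9), and in none of the caspases, caspase inhibitors, death receptors, p53 pathway genes or Mcl1 and Bcl2 partners. By unadjusted p those last lists had 1, 0, 0, 1 and 1 calls.

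**Figure D4:**
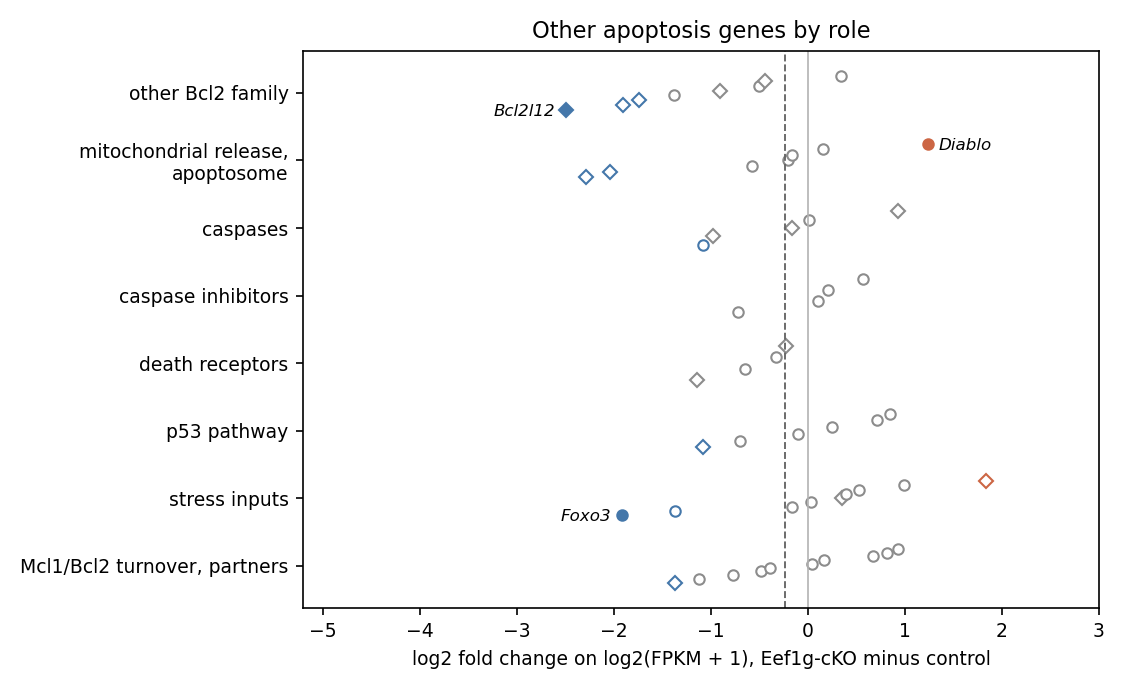
Log2 change of 53 other apoptosis genes by role, from limma on log2(FPKM + 1). Filled points passed the adjusted p, coloured open points only the unadjusted p, and diamonds had at most 3 reads in both libraries of a genotype, so their position depends on the pseudocount. The dashed line is the median of all genes tested, −0.23, and 3 genes are filled, Diablo to the right and Bcl2l12 and Foxo3 to the left.

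Diablo encodes SMAC, which leaves mitochondria with cytochrome c and blocks the caspase inhibitors. It was at 116 and 111 FPKM in control and at 332 and 220 in Eef1g-cKO, and the log2 rise was 1.24 (standard error 0.25, limma adjusted p = 0.0463). Casp2, an initiator caspase, was at 20.0 and 34.8 FPKM in control against 15.5 and 9.20 in Eef1g-cKO. It passed limma by unadjusted p only (limma adjusted p = 0.142) and was called decreased by edgeR (adjusted p = 0.0418).

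Bcl2l12, a distant relative of the family, kept 1 and 3 reads in Eef1g-cKO, against 75 and 64 in control, with control 5.68-fold higher when pooled (exact 95% counting interval 2.17 to 21.2, limma adjusted p = 0.0320). Foxo3, a transcription factor that activates BH3-only genes, averaged 22.6 ± 1.95 FPKM in control and 5.29 ± 0.920 in Eef1g-cKO (SD, n = 2 each), which limma put at −1.92 on the log2 scale (standard error 0.33, adjusted p = 0.0366). Its paralog Foxo1 was at 19.6 and 19.3 FPKM in control and at 7.24 and 6.62 in Eef1g-cKO. It passed limma by unadjusted p only (limma adjusted p = 0.0553) and was called by edgeR (adjusted p = 0.00517). Chek2, a kinase upstream of p53, had 41 and 32 control reads against 2 and 3 in Eef1g-cKO. Chek2 also passed limma by unadjusted p only (limma adjusted p = 0.154) and was not called by edgeR (adjusted p = 0.238). Its pooled ratio of control to Eef1g-cKO was 2.39, with an exact 95% counting interval of 0.978 to 7.57 that includes 1.

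The most abundant of these genes were Ywhae, Diablo, Fkbp8, Bag6 and Huwe1. Ywhae encodes a 14-3-3 protein of the kind that binds phosphorylated BAD, and was at 538 and 541 FPKM in control and 307 and 327 in Eef1g-cKO (limma adjusted p = 0.0660). Huwe1, a ubiquitin ligase for MCL1, was at 80.7 and 95.5 FPKM against 96.8 and 101, a log2 difference of 0.17 with a 95% interval of −0.34 to 0.68. Bag6 overlapped between the genotypes, with a log2 difference of 0.04 and a 95% interval of −0.47 to 0.55. Fkbp8, which anchors BCL2 at mitochondria, differed more within control, at 47.3 and 203 FPKM, than between the genotype means. Fkbp8 did not pass limma (limma adjusted p = 0.295) but was called decreased by edgeR (adjusted p = 0.0453).

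An exact permutation test of 1 gene, two-sided, with 2 libraries per genotype cannot give a p below 0.333, so every call rests on variance shared between genes. Without control replicate 1 or without control replicate 2, limma called 0 of the 8 members by adjusted p and the same number over all genes, while Bak1, Bax and Bid kept their direction and stayed among the 3 called by unadjusted p.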

How the data were processed

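Ribosome-protected fragments were measured in 2 control and 2 Eef1g-cKO libraries. The authors trimmed adapters, filtered by quality and aligned to the genome. The submitters' processing notes name cutadapt, Bowtie, STAR, mm10 and hg38 without versions or roles, and the read counter and annotation are not given in the sources used here. The authors deposited FPKM for each gene, and normalized counts, a signal equal to reads divided by 1 size factor per library, whose values were 100% whole multiples of 1 step (tolerance 0.001 reads), so reads were recovered. No listed gene had fewer than 10 reads in all. The deposited table also holds the authors' log2 fold changes, score, p-values and adjusted p-values, which were not used.

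Limma 3.58.1 (R 4.3.3) was fitted to log2(FPKM + 1) with a trended prior for genes averaging 1 FPKM or more, 10475 in all, and p was adjusted over all of them. edgeR 4.0.16 (TMM, quasi-likelihood test) and DESeq2 1.42.0 on recovered reads were alternatives, beside other pseudocounts, filters, scalings and priors, a replicate block, each library left out in turn and, added after seeing the data, libraries thinned to 223906 reads. The models were tested on simulated libraries. Ratios use reads pooled by genotype with exact (Clopper-Pearson) 95% intervals in Python 3.11.15 with scipy 1.17.1. Intervals and the limit of 3 reads cover counting error only, since PCR copies are not independent molecules. Nothing in the labels ties replicate numbers to animals, so p-values measure the spread between these libraries.

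Members and lists were chosen with earlier results of these data known. Besides the members, named genes are Eef1g and, of the other apoptosis genes, those passing the adjusted p and the fold, the 5 of highest mean FPKM, and up to 6 of largest change passing only the unadjusted p and averaging 5 FPKM or more, of which there were 3. A gene of these lists is not reported here. Coordinates are from RefSeq and GENCODE release M21 annotations of GRCm38 (RefSeq GRCm38.p6), the build called mm10, and serve for orientation. No gene was ranked for likeness to a member, as 4 libraries cannot do so.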

Additional observations from a re-analysis of the deposited data

How the results depend on the processing

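Over 14 alternatives, Bak1, Bax, Bid, Mcl1 and Pmaip1 kept their direction in every one. Bak1 was called by adjusted p in 9 of the 14 (adjusted p from 6.06e-05 to 0.274), and Bax (0.00145 to 0.280) and Bid (0.00381 to 0.302) in 8 each. The count of members called by adjusted p, 3 as reported, was 0 with a pseudocount of 0.1 FPKM, without a trend in the prior and with thinned libraries, where 3, 3 and 5 passed limma's unadjusted p, edgeR called 3 and DESeq2 called 1, Bak1. The 5 members in thinned libraries were Bak1, Bax, Bid, Pmaip1 and Bbc3, the last with 0 reads in both Eef1g-cKO libraries and so at the limit of detection. With each library left out in turn the count ranged from 0 to 3, with 0 for either control library, where the lone control is assumed to vary like Eef1g-cKO. Other apoptosis genes called by adjusted p numbered 3 as reported, 0 with the pseudocount of 0.1 FPKM, without the trend and with thinning, 5 with a pseudocount of 5 FPKM and in DESeq2, 6 with libraries centred on their medians, 9 in edgeR, and from 0 to 6 with a library left out. By unadjusted p they numbered 12 as reported, 5 with a pseudocount of 5 FPKM and with a filter at 5 FPKM, 7 in DESeq2 and with thinning, and from 6 to 16 with a library left out. Centring moved the median of all genes from −0.23 to −0.02 and turned the difference of Bad to 0.026. Leaving out a library gave −0.43 to 0.059 for Bad, −0.077 to 0.15 for Bcl2l1 and −1.05 to 0.048 for Bcl2l11. Over all genes, calls by adjusted p, 301 increased and 521 decreased as reported, were 29 and 47 with the pseudocount of 0.1 FPKM, 705 and 904 in edgeR, 502 and 451 in DESeq2, and 0 without the trend, with thinning and without either control library. The cause of these shifts was not tested.

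With the replicate number as a block, 3 members were called, and 424 genes increased and 822 decreased against 301 and 521 without it. The same-numbered libraries did not deviate together (Pearson's r of the replicate differences −0.01 across 10475 genes). This cannot show whether the numbers pair the libraries, since counting error in Eef1g-cKO, at a median of 5 and 8 reads per gene, also lowers r. The depth of Eef1g-cKO limits Bbc3, Bcl2l11 and Bid most.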
